A study of Mus musculus with 2 samples.

Results

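The 34 genes described here mark 2 stages of the cell cycle and were chosen by name from a list of names: 16 S-phase genes, whose products license and copy DNA, and 18 mitotic genes, whose products condense, attach and separate chromosomes. They are 34 of the 25815 genes with a molecule in the data. Molecules were counted in single cells from tumour-draining inguinal lymph nodes of mice, with 1 library pooled from 13 nodes of wild-type (WT) animals and 1 pooled from 9 nodes of animals labelled ATG5 KO. The series' design text names the latter ATG5LEC-KO and does not give the driver of the deletion, the tumour, or the age and strain of the animals. Viable CD31+ Ter119- CD45- endothelial cells and viable CD45+ Ter119- CD31- immune cells were sorted and pooled for each library, so proportions between sorted compartments were not compared. With 1 library per genotype no difference between the libraries has a replicate check, and no test was made. Every interval given is a 95% interval for counting error and does not cover variation between animals or pools.

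A proliferating cell passes from G1 into S phase when E2F transcription factors are released from retinoblastoma proteins and switch on the replication genes. The mitotic genes rise later, in G2, through the MuvB, B-MYB and FOXM1 factors acting on the CHR element and neighbouring CCAAT boxes, and their products are removed by the anaphase-promoting complex when mitosis ends. In a lymph node, resting lymphocytes transcribe few of these genes, germinal centre B cells divide fast, and endothelial cells divide when a node enlarges.

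Cells were grouped into 7 classes by marker genes, with the cell cycle genes kept out of the clustering variables. The classes held 3557 WT and 3913 KO cells. Lymphatic endothelial cells (LECs), which line lymphatic vessels and sinuses, numbered 574 and 203, and blood endothelial cells (BECs) 641 and 518. B cells numbered 1352 and 1558, CD4 T cells 419 and 734, CD8 T cells 455 and 717, and regulatory T cells (Tregs) 89 and 159. A small cluster of 27 and 24 B cells carried Gcsam, a signalling protein of germinal centre B cells, in 81.5% and 79.2% of cells and S1pr2, a receptor that keeps B cells in the germinal centre, in 88.9% and 87.5%, and was held apart from the other B cells after the clusters had been seen. The names followed their defining markers. Prox1, the master regulator of lymphatic identity, was detected in 93.7% and 97.0% of LECs and in 1.25% and 1.93% of BECs, and Flt1, a receptor of the blood endothelium, in 94.5% and 93.2% of BECs. Cd79a was detected in 98.3% and 98.8% of B cells, Cd4 in 66.6% and 68.5% of CD4 T cells, Cd8a in 89.2% and 86.1% of CD8 T cells, and Foxp3 in 69.7% and 67.3% of Tregs.

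The libraries were close in size, with 23649554 and 23089918 unique molecular identifiers (UMIs, each standing for 1 captured molecule). Median depth per cell by class ran from 2699 UMIs in KO B cells to 8406 in WT LECs, apart from the deeper germinal centre B cells. Shares of cells are therefore given after each cell was thinned to 2000 UMIs, and shallower cells were left out. Levels are given as CPM, a gene's UMIs scaled by the total UMIs of its class without mitochondrial genes. The 2 libraries shared 15 called barcodes. Both pools held male cells, with Y-linked UMIs and no Xist, and female cells, with Xist and no Y-linked UMIs, in different proportions: of LECs that could be assigned a sex, 72.0% were male in the WT and 49.7% in the KO library, and of B cells 79.5% and 50.4%. The LECs of the 2 libraries also differed in makeup, since 509 of 574 WT cells lay in a cluster led by Ackr4 and 65 in a cluster led by Lyve1, against 107 and 96 in the KO library. Atg5 itself was counted at 44.4 CPM in WT and 44.5 CPM in KO LECs, a ratio of 1.0 (0.751 to 1.32). Tags are read at the 3' end of transcripts, and the deleted part of the gene is not given in the sources used here, so these counts do not check the deletion.

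Promoters of 3 genes of each group are shown because they carry the elements through which each phase is known to be switched on. Mouse promoter sequences came from RefSeq on GRCm38.p6, and 28 of the 34 members were matched there, 14 of each group. The windows below end at or before the first base of the annotated gene and read 5′ to 3′ on the gene's strand. Capitals mark CHR elements (TTTGAA or TTCGAA) and CCAAT boxes in the mitotic genes, on either strand. They come from Mki67, a protein that coats mitotic chromosomes (chr7:135716380-135716529, minus strand), Top2a, the topoisomerase that untangles sister chromatids (chr11:99024190-99024339, minus strand), and Cdk1, the kinase that drives entry into mitosis (chr10:69352939-69353088, minus strand).
Mki67: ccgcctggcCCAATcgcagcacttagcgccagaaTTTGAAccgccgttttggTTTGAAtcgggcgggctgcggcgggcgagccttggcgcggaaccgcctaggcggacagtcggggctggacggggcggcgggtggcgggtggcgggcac
Top2a: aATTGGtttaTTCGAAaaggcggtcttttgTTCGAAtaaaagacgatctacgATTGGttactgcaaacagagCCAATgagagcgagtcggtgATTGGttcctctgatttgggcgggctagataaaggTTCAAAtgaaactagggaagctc
Cdk1: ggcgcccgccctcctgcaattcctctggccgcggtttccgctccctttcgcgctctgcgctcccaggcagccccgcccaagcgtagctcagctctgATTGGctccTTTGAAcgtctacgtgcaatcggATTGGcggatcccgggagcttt
In the S-phase genes capitals mark E2F elements (TTTCGCGC, TTTCCCGC, TTTGGCGC or TTTGCCGC, on either strand). Mcm6 and Mcm5 encode subunits of the replicative helicase (chr1:128359706-128359855, minus strand, and chr8:75109359-75109508, plus strand), and Dtl a substrate adaptor of the ubiquitin ligase that limits licensing to once per cycle (chr1:191575545-191575635, minus strand).
Mcm6: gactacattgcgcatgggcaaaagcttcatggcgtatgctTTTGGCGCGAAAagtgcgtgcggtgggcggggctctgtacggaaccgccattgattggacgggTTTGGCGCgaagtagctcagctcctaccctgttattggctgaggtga
Mcm5: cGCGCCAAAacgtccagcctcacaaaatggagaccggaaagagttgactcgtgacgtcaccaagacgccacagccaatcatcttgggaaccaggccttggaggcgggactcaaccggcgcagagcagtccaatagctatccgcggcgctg
Dtl: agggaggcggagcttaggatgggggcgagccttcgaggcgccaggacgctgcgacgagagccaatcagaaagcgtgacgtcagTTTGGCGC

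Over the full windows of 300 bases, a CHR element was found in 11 of 14 mitotic members (78.6%) and in 1 of 14 S-phase members (7.14%), against 21.7% of all 27025 genes with a promoter in the table. An E2F element was found in 9 of 14 S-phase members (64.3%) and in 1 of 14 mitotic members, Cdk1, against 2.61% of all genes. CCAAT boxes did not separate the phases to the same degree, with 13 of 14 mitotic and 10 of 14 S-phase members against 41.1% of all genes. CHR and CCAAT together stood in 11 mitotic members and 1 S-phase member, against 9.65% of all genes. These matches describe the letters in a window and not binding. The members were picked from textbook phase lists, so their promoters are not an independent set.

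Most cells carried no mitotic transcript, and a small number carried nearly all of them. Without thinning, 83.7% of the 7470 cells had no UMI of any mitotic member, 11.2% had UMIs of exactly 1 and 1.70% of exactly 2. A further 204 cells had 5 or more of the 18, of which 122 had 10 or more and 19 had all 18. S-phase transcripts were spread wider: 38.4% of cells had none of the 16, 39.3% had 1, and 257 cells had 5 or more. Cells with 5 or more members of either group were deeper than the rest, with a median of 10167 against 3270 UMIs.

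**Figure D1:**
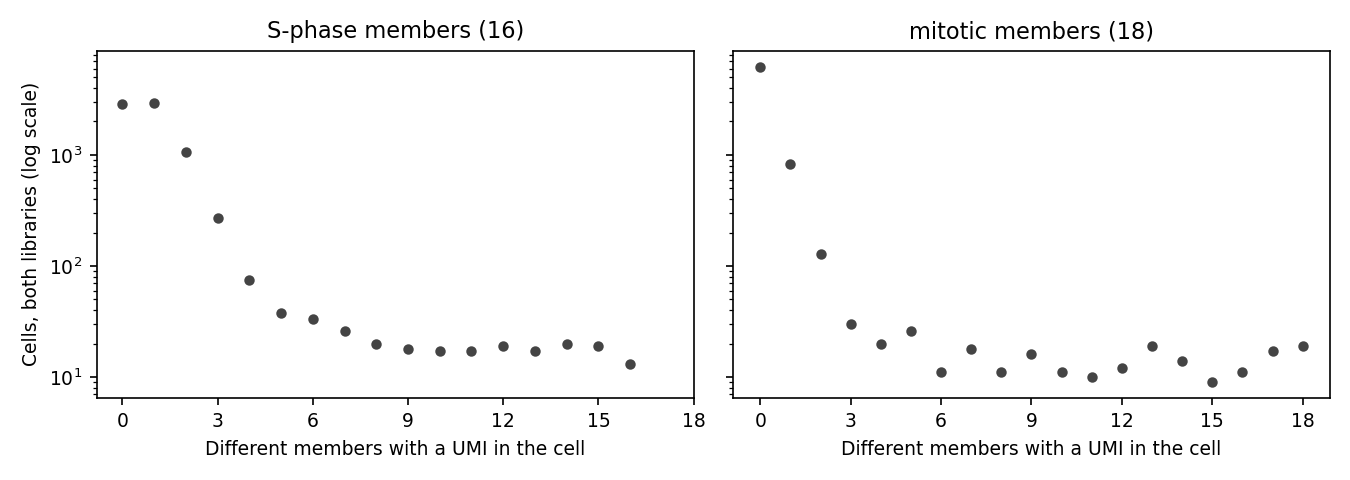
Number of cells (log scale, both libraries and all 7 classes, no thinning) by the number of different S-phase members (left) or mitotic members (right) with a UMI in the cell. The count of mitotic members falls steeply to 4 and then stays near level up to all 18, which 19 cells reached.

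A single mitotic transcript was thus a weak mark, and the text counts a cell as positive when it holds at least 2 different members after thinning. Over both libraries, mitotic-positive cells made up 70.0% of germinal centre B cells (35 of 50, 55.4 to 82.1), 9.17% of Tregs (20 of 218, 5.69 to 13.8), 8.41% of BECs (87 of 1035, 6.79 to 10.3) and 6.30% of LECs (48 of 762, 4.68 to 8.27). They made up 1.76% of CD8 T cells (20 of 1135, 1.08 to 2.71), 1.17% of CD4 T cells (12 of 1027, 0.605 to 2.03) and 0.407% of the remaining B cells (10 of 2458, 0.195 to 0.747). The intervals of Tregs, BECs and LECs overlapped one another, as did those of CD8 and CD4 T cells. Both endothelial classes lay above CD4, CD8 and B cells with no overlap of intervals.

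Free RNA gives stray UMIs in any cell, and how often that yields 2 members was not tested. In the largest CD4 cluster, led by Cd4, Cd40lg and Lef1 and called resting here, no cell was mitotic-positive. It held 323 WT and 596 KO cells, which allows shares of up to 1.14% and 0.617%. Among lymphatic cells the lowest share was in a cluster led by Coch, with a median of 7614 UMIs in WT cells. It was left out of the LECs because its leading genes held more markers of other classes than of LECs. In it 1 of 163 cells was positive (0.613%). Whether either cluster holds dividing cells was not tested apart from these counts. The share in B cells lies in the same range, and how much of it comes from free RNA or from dividing cells was not tested.

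S-phase positivity ran in a similar order but on a much higher floor. At least 2 S-phase members were found in 70.0% of germinal centre B cells, 20.2% of Tregs (15.1 to 26.1), 14.6% of BECs (12.5 to 16.9), 12.5% of CD8 T cells (10.6 to 14.6), 10.9% of CD4 T cells (9.07 to 13.0), 8.92% of LECs (7.0 to 11.2) and 7.81% of B cells (6.78 to 8.94). The floor came from Pcna, the sliding clamp of DNA polymerase, which had a UMI in 43.3% of all cells and gave 7342 of the S-phase UMIs. With Pcna left out, the share of B cells fell to 2.46% and 2.58% in the WT and KO libraries, and that of CD4 T cells to 5.14% and 3.04%. Among germinal centre B cells it stayed at 69.2% and 66.7%. The S-phase share of LECs overlapped that of B cells with Pcna counted. Without Pcna it was 7.09% in WT LECs (5.11 to 9.53), above the B cell interval of 1.64 to 3.54. In KO LECs it was 5.56% (2.81 to 9.72), which overlapped the B cell interval of 1.79 to 3.58.

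**Figure D2:**
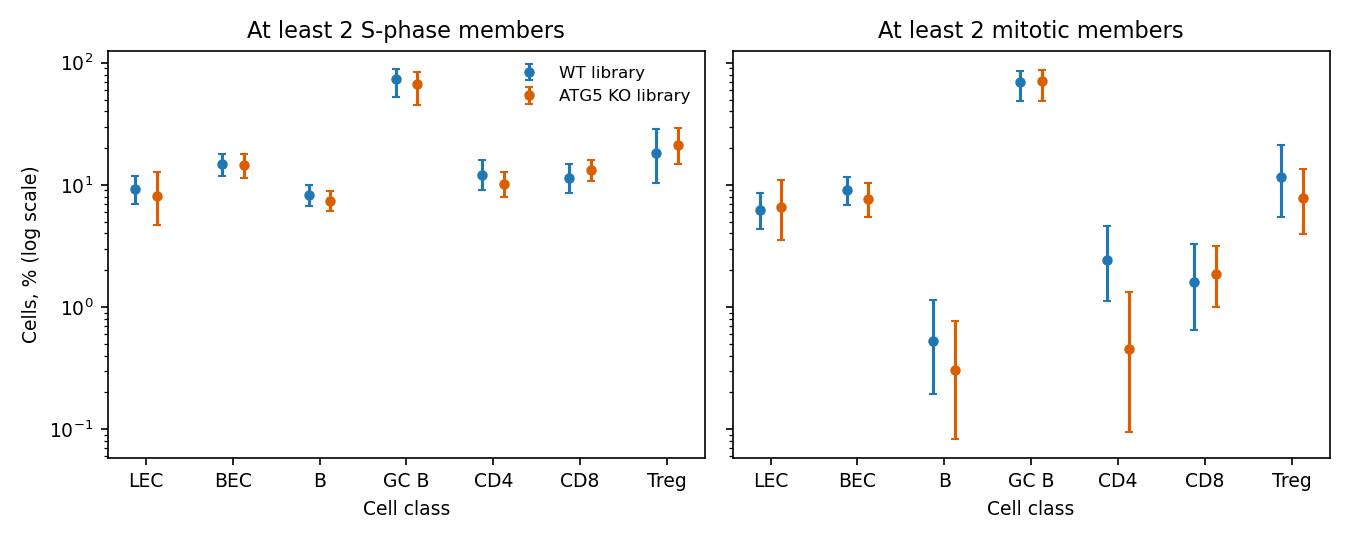
Share of cells with at least 2 S-phase members (left) or mitotic members (right), in percent on a log scale, after thinning to 2000 UMIs, by class, for the WT and KO libraries. Points are shares and bars exact 95% binomial intervals; germinal centre B cells (GC B) stand at 66.7% to 73.1% in both panels, and the mitotic share of CD4 T cells is 2.43% in the WT and 0.457% in the KO library.

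Most single members were highest in germinal centre B cells, and they differed in the order of the other classes. Pcna (chr2:132249162-132253314 on GRCm38) was counted in WT and KO cells at 174 and 119 CPM in LECs, 217 and 212 in BECs, 192 and 213 in B cells, 290 and 267 in CD4 T cells, 278 and 331 in CD8 T cells, 519 and 456 in Tregs, and 1038 and 1003 in germinal centre B cells. Germinal centre B cells thus stood highest and LECs lowest in both libraries. Pclaf, which binds PCNA at stalled forks (chr9:65890237-65903266), separated the classes far more sharply, from 2.84 and 4.37 CPM in B cells to 1278 and 1617 in germinal centre B cells. Between those lay LECs at 20.2 and 11.1, BECs at 65.6 and 52.5, CD4 T cells at 89.8 and 27.4, CD8 T cells at 63.3 and 96.9, and Tregs at 407 and 344 CPM. After thinning, Pclaf was found in 0.264% and 0.455% of B cells, 2.66% and 1.52% of LECs, 4.25% and 4.26% of BECs, and 65.4% and 58.3% of germinal centre B cells.

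The licensing genes were flatter across the classes. Mcm6 (chr1:128331590-128359664) ran from 43.5 and 42.8 CPM in B cells through 56.9 and 46.4 in LECs, 64.0 and 67.0 in BECs, 59.6 and 54.4 in CD4 T cells and 71.6 and 85.6 in CD8 T cells to 194 and 224 in Tregs and 540 and 416 in germinal centre B cells. Mcm5 (chr8:75109569-75128439) ran from 29.0 and 32.5 CPM in B cells through 35.9 and 23.5 in LECs, 38.3 and 44.6 in BECs, 38.7 and 26.5 in CD4 T cells and 45.6 and 51.8 in CD8 T cells to 160 and 116 in Tregs and 367 and 456 in germinal centre B cells. B cells lay lowest for Mcm6 in both libraries, and for Mcm5 in the WT library. Exo1, an exonuclease of mismatch repair and the S-phase member with fewest UMIs (186, chr1:175880581-175913489), stayed at or under 13.9 CPM in every class but germinal centre B cells, where it reached 56.5 and 29.5. Rrm2, a subunit of ribonucleotide reductase, was at 6.16 and 3.27 CPM in LECs and at 28.7 and 23.2 in BECs, whereas Tyms, which makes thymidylate, was at 25.1 and 21.6 CPM in LECs and at 33.3 and 46.4 in BECs.

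Mki67 and Top2a were the most abundant mitotic members by UMIs. Mki67 (chr7:135689784-135716361) was counted at 69.7 and 66.7 CPM in WT and KO LECs, 189 and 129 in BECs, 25.9 and 3.16 in B cells, 182 and 37.4 in CD4 T cells, 37.3 and 106 in CD8 T cells, 550 and 505 in Tregs, and 1695 and 2220 in germinal centre B cells. It was found after thinning in 5.50% and 4.55% of LECs, 7.96% and 6.60% of BECs, 0.176% and 0.455% of B cells, 2.97% and 1.07% of CD4 T cells, 0.685% and 2.73% of CD8 T cells, 13.0% and 8.51% of Tregs, and 73.1% and 79.2% of germinal centre B cells. Germinal centre B cells and Tregs were highest in both libraries, and the order of CD4 and CD8 T cells was exchanged between them. Top2a (chr11:98992943-99024189) was at 56.9 and 34.01 CPM in LECs, 143 and 120 in BECs, 26.4 and 12.4 in B cells, 158 and 52.2 in CD4 T cells, 94.7 and 95.2 in CD8 T cells, 713 and 561 in Tregs, and 1338 and 2046 in germinal centre B cells.

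Cenpe, the kinetochore motor that carries chromosomes to the spindle equator (chr3:135212537-135273611), was at 25.7 and 32.0 CPM in LECs, 60.7 and 57.6 in BECs, 12.2 and 11.2 in B cells, 58.1 and 6.09 in CD4 T cells, 13.0 and 28.0 in CD8 T cells, 246 and 88.2 in Tregs, and 544 and 767 in germinal centre B cells. Tpx2, which nucleates spindle microtubules (chr2:152847964-152895321), was at 31.4 and 30.7 CPM in LECs, 70.9 and 47.5 in BECs, 5.68 and 4.13 in B cells, 54.2 and 10.9 in CD4 T cells, 20.1 and 29.0 in CD8 T cells, 208 and 120 in Tregs, and 357 and 331 in germinal centre B cells. Plk1, the polo-like kinase of mitotic entry and the mitotic member with fewest UMIs (157, chr7:122159439-122169873), stayed at or under 12.4 CPM outside Tregs, at 35.9 and 10.6, and germinal centre B cells, at 31.8 and 85.3. No Plk1 UMI was counted in 1558 KO B cells, where the exact interval reached 0.896 CPM. Ccnb2, a B-type cyclin, had its LEC level, 32.5 and 37.3 CPM, above its BEC level of 24.7 and 29.3. The remaining mitotic members can be read off the map of levels: each was highest in germinal centre B cells in both libraries, except Cenpf and Plk1 in the WT library, where Tregs were highest.

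**Figure D3:**
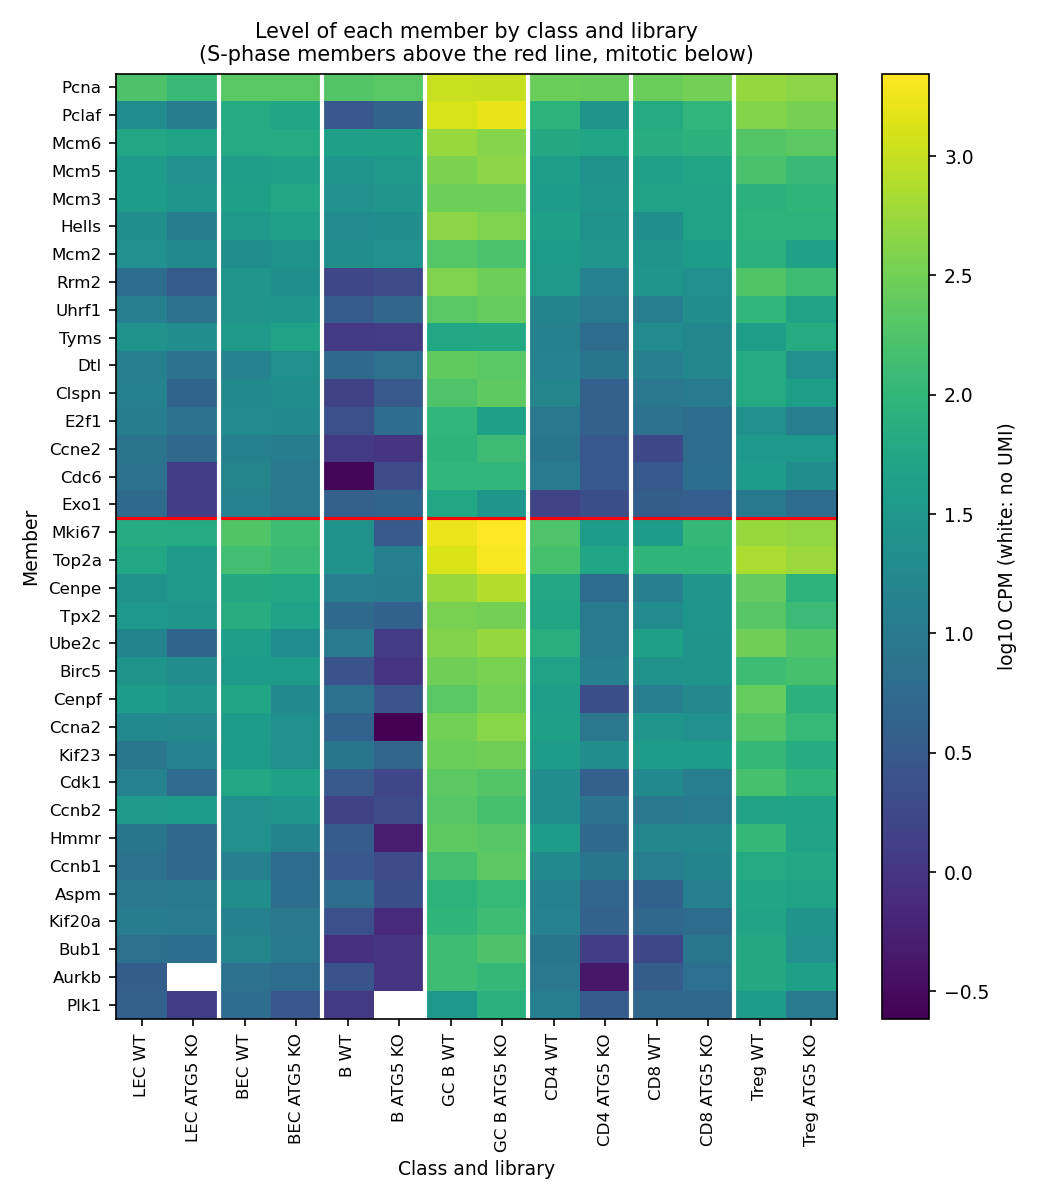
Level of each of the 34 members (rows, ordered by UMIs within each phase) as log10 CPM in each class and library (columns), white where no UMI was counted. Colours compare classes within a row, since members differ in transcript length and capture; the germinal centre B cell (GC B) columns are brightest for nearly every member, and the mitotic rows of the KO CD4 column are darker than its WT neighbour.

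Mitotic members kept close company in single cells. For each mitotic member, between 67.5% (Kif23, a cytokinesis motor) and 97.8% (Ccna2, the cyclin of S and G2) of its UMIs lay in cells with at least 2 other mitotic members, which were 4.36% to 5.09% of all cells and held 10.5% to 11.9% of all UMIs. Among S-phase members, Pclaf (97.8%) and Rrm2 (90.9%) were as strongly tied to cells with at least 2 mitotic members, whereas 31.2% of Pcna, 39.1% of Mcm2 and 41.0% of Mcm6 UMIs lay there. These counts were made without thinning. After thinning, Kif23 was found in 3.24% and 2.13% of CD4 T cells and in 4.79% and 5.17% of CD8 T cells. In WT and KO T cells with at least 5 mitotic members, Kif23 was at 253 and 316 CPM in CD4 and 377 and 160 in CD8 T cells. These levels rest on 6 and 3 CD4 and on 5 and 12 CD8 T cells. In all called cells Kif23 was at 27.7 and 27.1 CPM in the WT and KO libraries. That was close to its level in barcodes below the cell calls, 31.3 and 26.5 CPM. Its detection in T cells with fewer than 5 mitotic members is therefore not read as expression. By contrast Mki67 stood at 54.6 and 42.0 CPM in those barcodes against 134 and 129 in called cells, and Pcna at 128 and 122 against 235 and 263. Dtl was higher there than in called cells, at 27.8 and 30.2 against 17.3 and 17.6 CPM. Hells was at 46.3 and 39.3 against 35.8 and 41.1 CPM, and Clspn was higher there in both libraries. How much of the counts of Dtl, Hells and Clspn comes from free RNA was not tested. This limit applies to the ratios of Dtl in BECs and Tregs, and of Hells in CD8 T cells. It also applies to Clspn and Hells in CD4 T cells and LECs.

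The cells with 5 or more mitotic members held most of the mitotic UMIs of every class in both libraries, except B cells in the KO library. There were 34 WT and 10 KO such cells among LECs, 42 and 31 among BECs, 18 and 18 among germinal centre B cells, 9 and 12 among Tregs, 6 and 3 among CD4 T cells, 5 and 12 among CD8 T cells and 1 and 3 among B cells. They held 87.5% and 72.0% of the mitotic UMIs in LECs, 89.7% and 84.8% in BECs, and 93.8% and 71.0% in CD4 T cells. In WT B cells 1 cell alone held 277 of 448 mitotic UMIs, 61.8%, and the 3 KO B cells held 44 of 213, 20.7%. In CD4 T cells the highest cell held 35.2% of mitotic UMIs in the WT and 47.5% in the KO library. All 6 and 3 CD4 T cells of this kind had Cd4 UMIs, none had a UMI of Cd8a, and 1 WT cell had Foxp3. Among the 9 CD4 T cells, 17 CD8 T cells and 21 Tregs with 5 or more mitotic members, none carried 4 or more markers of endothelial, B or myeloid cells. Among the others of this kind, 1 of 4 B cells carried 4 or more endothelial markers, 2 of 73 BECs as many B cell markers, and 1 of 73 BECs and 1 of 44 LECs as many T cell markers.

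Mitotic LECs carried fewer S-phase transcripts than mitotic BECs. Of 44 LECs with at least 5 mitotic members, 11 also had at least 5 S-phase members (25%, 13.2 to 40.3), against 53 of 73 BECs (72.6%, 60.9 to 82.4), a difference of -47.6 percentage points (-61.3 to -29.3). The same was seen in either library, with 9 of 34 WT and 2 of 10 KO LECs against 71.4% and 74.2% of BECs. Depth differed in opposite directions, with a median of 12027 UMIs in mitotic WT LECs against 6901.5 in BECs, and of 8269 against 10269 in the KO library. With at least 2 members of each group and no thinning the difference was -16.8 points (-28.8 to -4.35). After thinning and with at least 2 members of each group, the shares were 31.2% of 48 LECs and 62.1% of 87 BECs, a difference of -30.8 points (-45.6 to -13.3). With at least 5 of each after thinning the interval included 0 (-24.6 points, -42.6 to 1.40).

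Single members differed in the same cells. In cells with at least 5 mitotic members, Pclaf stood at 233 and 136 CPM in WT and KO LECs against 585 and 421 in BECs, Rrm2 at 59.7 and 24.8 against 270 and 181, and Pcna at 429 and 49.6 against 775 and 622. The KO LEC levels rest on 10 cells, with 11 UMIs of Pclaf, 2 of Rrm2 and 4 of Pcna. Among the mitotic genes of the same cells, Top2a was at 546 and 236 CPM in LECs against 1311 and 903 in BECs, whereas Cenpf, a kinetochore protein, was at 429 and 422 against 479 and 149, and Ccnb2 at 358 and 422 against 196 and 149. In the other classes most cells with 5 or more mitotic members also had 5 or more S-phase members: 32 of 36 germinal centre B cells, 16 of 17 CD8 T cells, 8 of 9 CD4 T cells and 14 of 21 Tregs. Within LECs the share was 29.6% (8 of 27) in the Ackr4 cluster and 17.6% (3 of 17) in the Lyve1 cluster.

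Between the libraries, the mitotic share of CD4 T cells was lower in the KO library. Mitotic-positive cells were 9 of 370 WT CD4 T cells (2.43%, 1.12 to 4.57) and 3 of 657 KO cells (0.457%, 0.0943 to 1.33), a difference of -1.98 points (-4.12 to -0.531). With at least 2 members after thinning, it was the 1 class of 7 in which the interval of the difference excluded 0, for mitotic or S-phase members. Without thinning the counts were 10 of 419 and 12 of 734, and the interval included 0 (-0.752 points, -2.82 to 0.867). The positive cells came from outside the resting cluster, mainly from a small cluster led by Ube2c, Mki67 and Top2a, where 8 of 12 WT and 2 of 7 KO cells were positive. A dividing CD4 T cell and a dividing Treg lie close together, so both classes were also counted together: 4.03% of WT and 1.75% of KO cells were positive, a difference of -2.27 points (-4.63 to -0.399). Without thinning, 24 of 508 WT and 33 of 893 KO cells of both classes were positive, and the interval included 0 (-1.03 points, -3.48 to 1.08). Over CD4, CD8 and Tregs together the difference after thinning was -1.02 points (-2.45 to 0.194). Of the cells assigned a sex, 8 of 171 WT and 1 of 210 KO male CD4 T cells were positive, and 1 of 49 and 2 of 139 female cells.

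The levels of single members gave the same picture in CD4 T cells. All 16 mitotic members with at least 20 UMIs over both libraries were lower in the KO library by more than 1.5-fold, with intervals that excluded 1, where 8.55% of all 9235 genes were lower by that much. Their ratios of KO over WT ran from 0.0562 to 0.562, with a median of 0.248. Cenpf had 50 UMIs in the WT and 5 in the KO library (0.0562, 0.0175 to 0.140), Cenpe 75 and 14 (0.105), Ube2c 99 and 24 (0.136), and Hmmr, a spindle protein, 46 and 13 (0.159). Cdk1 had 27 and 9 UMIs (0.187), Tpx2 70 and 25 (0.201), Mki67 235 and 86 (0.206), and Ccna2 55 and 21 (0.215). Plk1 had 16 and 8 UMIs (0.281), Birc5, the survivin of the chromosomal passenger complex, 60 and 30 (0.281), Kif20a 18 and 10 (0.312), and Top2a 204 and 120 (0.331). Aspm had 17 and 11 (0.364), Ccnb2 27 and 18 (0.375), Ccnb1 24 and 19 (0.445), and Kif23 48 and 48 (0.562, 0.369 to 0.856). Kif23 is among the 16 by the rule, although its level in called cells was close to that in barcodes below the cell calls. These ratios rest on few cells, so the intervals are too narrow: the 5 highest cells of each library held 88.1% and 86.1% of the Mki67 UMIs and all of those of Cenpf. The members are not independent of one another, and without the highest cell of each library the ratio of the summed mitotic UMIs was 0.192 against 0.239 with it. The ratio was 0.0981 in cells with at most 10% mitochondrial UMIs, 0.124 in male cells and, in the opposite direction, 8.0 in female cells, of which 1 WT and 2 KO cells were mitotic-positive. Since 78.4% of WT and 59.3% of KO CD4 T cells assigned a sex were male, genotype and the animals pooled cannot be told apart here.

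Among S-phase members of CD4 T cells, 8 of 14 were lower by more than 1.5-fold and none higher, against 8.55% and 7.35% of all genes. The 6 with an interval that excluded 1 were Clspn, the checkpoint mediator claspin (20 and 9 UMIs, 0.253), Cdc6, a licensing factor (14 and 7, 0.281), Pclaf (116 and 63, 0.305), Rrm2 (43 and 32, 0.418), Tyms (17 and 14, 0.463) and Hells, a chromatin remodeller (54 and 61, 0.635). Pcna was at 0.922 (0.810 to 1.05), and the share of S-phase-positive cells was 12.2% and 10.2% (difference -1.96 points, -6.23 to 1.93). That interval excluded 0 with cells thinned to 3000 UMIs (-9.54 points, -16.3 to -3.26) and with at least 3 S-phase members (-2.30 points, -4.77 to -0.436).

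**Figure D4:**
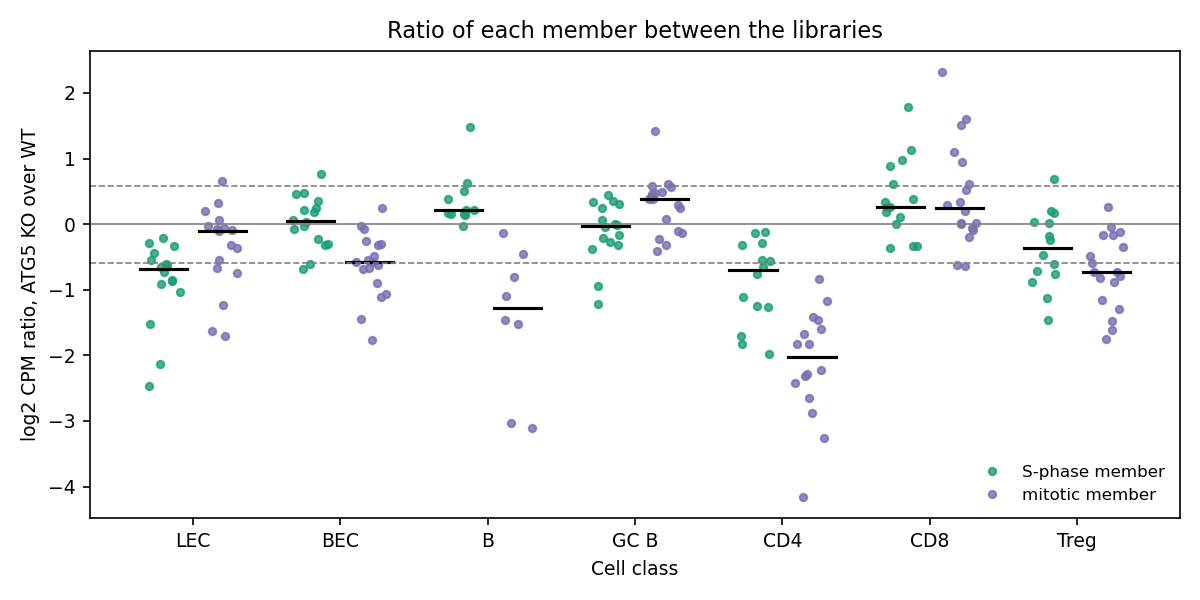
log2 ratio of CPM, KO over WT library, of each member with at least 20 UMIs over both libraries, by class, with S-phase members in green and mitotic members in purple. Black bars are medians, dashed lines mark 1.5-fold; the 16 mitotic members of CD4 T cells all lie under the lower line, with a median of -2.03, and those of germinal centre B cells (GC B) have a median of 0.38.

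Tregs showed a like direction in the levels and no clear difference in shares. Mitotic-positive cells were 9 of 77 WT and 11 of 141 KO Tregs (11.7% and 7.80%, difference -3.89 points, -13.6 to 3.92). Of 18 mitotic members, 11 were lower by more than 1.5-fold and none higher, against 11.4% and 12.7% of all 6989 genes. Their intervals excluded 1 for 9: Plk1 (15 and 7 UMIs, 0.297), Cenpf (109 and 56, 0.327), Cenpe (103 and 58, 0.358), Bub1, a checkpoint kinase (25 and 16, 0.407), Hmmr (44 and 31, 0.448), Ccna2 (82 and 73, 0.566), Tpx2 (87 and 79, 0.577), Ube2c (128 and 121, 0.601) and Cdk1 (65 and 62, 0.606). Mki67 was at 0.917 (0.773 to 1.09) and Top2a at 0.787 (0.674 to 0.920). Of 14 S-phase members, 6 were lower and 1 higher, and the intervals excluded 1 for Dtl (28 and 16, 0.363), Uhrf1, which copies DNA methylation (43 and 31, 0.458), Mcm2 (34 and 29, 0.542) and Rrm2 (79 and 82, 0.660). One WT Treg alone held 31.0% of the mitotic UMIs of its library, and without the highest cell of each library the summed ratio moved from 0.681 to 0.778. It was 0.376 in male and 1.54 in female cells, where 1 of 9 WT and 7 of 37 KO cells were mitotic-positive after thinning.

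In CD8 T cells more members were higher than lower. Their mitotic-positive shares were 7 of 438 (1.60%) and 13 of 697 (1.87%), a difference of 0.267 points (-1.57 to 1.80). Of 18 mitotic members 6 were higher by more than 1.5-fold and 2 lower, against 7.27% and 6.73% of all 9660 genes. Mki67 had 63 and 311 UMIs (2.84, 2.16 to 3.79), Cenpe 22 and 82 (2.15, 1.33 to 3.61), Aspm 7 and 37 (3.05, 1.34 to 8.10) and Bub1 3 and 26 (4.99, 1.53 to 25.8), while Ube2c was lower at 72 and 80 (0.640, 0.460 to 0.893) and Top2a level at 160 and 279 (1.005, 0.824 to 1.23). Of 15 S-phase members 5 were higher and none lower, with intervals that excluded 1 for Ccne2, the cyclin of S-phase entry (3 and 18 UMIs, 3.46, 1.01 to 18.3), Hells (39 and 134, 1.98), Uhrf1 (20 and 64, 1.84) and Pclaf (107 and 284, 1.53, 1.22 to 1.93). Without thinning, S-phase-positive cells were 25.5% of WT and 31.7% of KO CD8 T cells, a difference of 6.17 points (0.826 to 11.3). After thinning they were 11.4% and 13.2%, with an interval that included 0 (1.78 points, -2.26 to 5.58), and median depth was 3827 and 4107 UMIs. The summed mitotic ratio of 1.25 was 1.07 in male and 24.7 in female cells, and 1.6 without the highest cell of each library. After thinning, none of 51 WT and 7 of 199 KO female cells were mitotic-positive.

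In B cells outside the germinal centre cluster, the mitotic ratios turned on 1 cell. Of 8 mitotic members with at least 20 UMIs, 6 were lower by more than 1.5-fold, against 6.45% of all 10320 genes, and the intervals excluded 1 for Ube2c (37 and 5 UMIs, 0.116), Mki67 (91 and 13, 0.122), Aspm (22 and 9, 0.350), Cenpf (26 and 11, 0.362) and Top2a (93 and 51, 0.469). The summed ratio was 0.406 (0.344 to 0.480). Without the highest cell of each library it was 0.958 (0.776 to 1.18), and with the germinal centre cells counted in it was 1.04 (0.988 to 1.10). Of 11 S-phase members 2 were higher, against 4.94% of all genes, and E2f1, the activator of the replication genes, had 8 and 26 UMIs (2.78, 1.22 to 7.10).

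Mitotic-positive germinal centre B cells were 18 of 26 and 17 of 24, and the interval of the difference ran from -23.0 to 25.5 points. Of 18 mitotic members 3 were higher by more than 1.5-fold and none lower, against 13.7% and 13.5% of 5016 genes. They were Plk1 (9 and 26 UMIs, 2.68, 1.22 to 6.51), Top2a (379 and 624, 1.53, 1.34 to 1.74) and Ccnb1 (42 and 68, 1.503, 1.01 to 2.26). Of 16 S-phase members 2 were lower and none higher, and the interval excluded 1 for E2f1, at 28 and 13 UMIs (0.431, 0.205 to 0.860). The summed mitotic ratio of 1.29 was 1.74 in male and 0.592 in female cells.

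In BECs the shares of the libraries after thinning did not differ beyond counting error, and the levels of several mitotic members were lower in the KO library. Mitotic-positive cells were 51 of 565 (9.03%, 6.80 to 11.7) and 36 of 470 (7.66%, 5.42 to 10.4), a difference of -1.37 points (-4.73 to 2.10), and S-phase-positive cells 14.7% and 14.5%. With at least 5 S-phase members and no thinning the shares were 6.86% and 10.6%, a difference of 3.75 points (0.503 to 7.16). Of 18 mitotic members 8 were lower by more than 1.5-fold and none higher, against 9.1% and 6.52% of all 11221 genes. The intervals excluded 1 for Aspm (67 and 18 UMIs, 0.295, 0.165 to 0.502), Cenpf (159 and 53, 0.366, 0.263 to 0.502), Ccnb1 (39 and 17, 0.479), Ube2c (116 and 57, 0.540), Hmmr (72 and 41, 0.625) and Ccna2 (110 and 65, 0.649). Cenpe was at 0.949 (0.763 to 1.18). Of 16 S-phase members 1 was higher, Dtl (42 and 65, 1.70, 1.14 to 2.57), and 2 were lower with intervals that included 1.

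The blood endothelial clusters did not contribute equally. In the largest, led by Prnd, Enpp2 and Cxcl12, 21 of 288 WT and 9 of 212 KO cells were mitotic-positive (7.29% and 4.25%, difference -3.05 points, -7.16 to 1.34). In that led by Cxcl9, Mest and Gpihbp1 there were 19 of 169 and 26 of 197 (11.2% and 13.2%, difference 1.96 points, -4.98 to 8.66). The cluster led by Ccl21a and Glycam1, a high endothelial venule gene, held 3 of 67 and none of 41, and that led by Mgp, Sema3g and Gja5, arterial genes, 8 of 41 and 1 of 20. The summed mitotic ratio was 0.599 in the Prnd, 0.963 in the Cxcl9, 0.0989 in the Ccl21a and 0.152 in the Mgp cluster, the last pair from 76 and 5 and from 326 and 27 UMIs. After thinning every interval of a difference in shares within these 4 clusters included 0. Without thinning it excluded 0 for the mitotic share of the Ccl21a cluster, with 7 of 69 WT and none of 43 KO cells (-10.1 points, -19.5 to -0.465), and for the S-phase share of the Cxcl9 cluster, with 55 of 182 and 88 of 208 (12.1 points, 2.51 to 21.3).

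LECs, the cells named in the genotype, were mitotic-positive in 35 of 564 WT (6.21%, 4.36 to 8.53) and 13 of 198 KO cells (6.57%, 3.54 to 10.97), a difference of 0.360 points (-3.18 to 5.03). The S-phase share was 9.22% and 8.08% (difference -1.14 points, -5.19 to 3.96). The clusters that make up the LECs were also counted apart. In the Ackr4 cluster 25 of 501 WT and 5 of 103 KO cells were mitotic-positive (4.99% and 4.85%), and in the Lyve1 cluster 10 of 63 and 8 of 95 (15.9% and 8.42%, difference -7.45 points, -19.1 to 2.69). The Lyve1 cluster had the higher share in each library, and it held 63 of the 564 WT and 95 of the 198 KO LECs counted. The summed mitotic ratio was 0.843 (0.716 to 0.986) in the Ackr4 and 0.358 (0.312 to 0.411) in the Lyve1 cluster, against 0.856 (0.774 to 0.945) in all LECs. These ratios rest on few cells, so their intervals are too narrow. In the Lyve1 cluster 3 of 65 WT cells held 62.5% of the mitotic UMIs, and 5 of 96 KO cells 72.6%. In the Ackr4 cluster 25 of 509 WT cells held 85.4%, and 5 of 107 KO cells 66.5%. With the Coch cluster counted in, the summed mitotic ratio of LECs was 0.993.

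**Figure D5:**
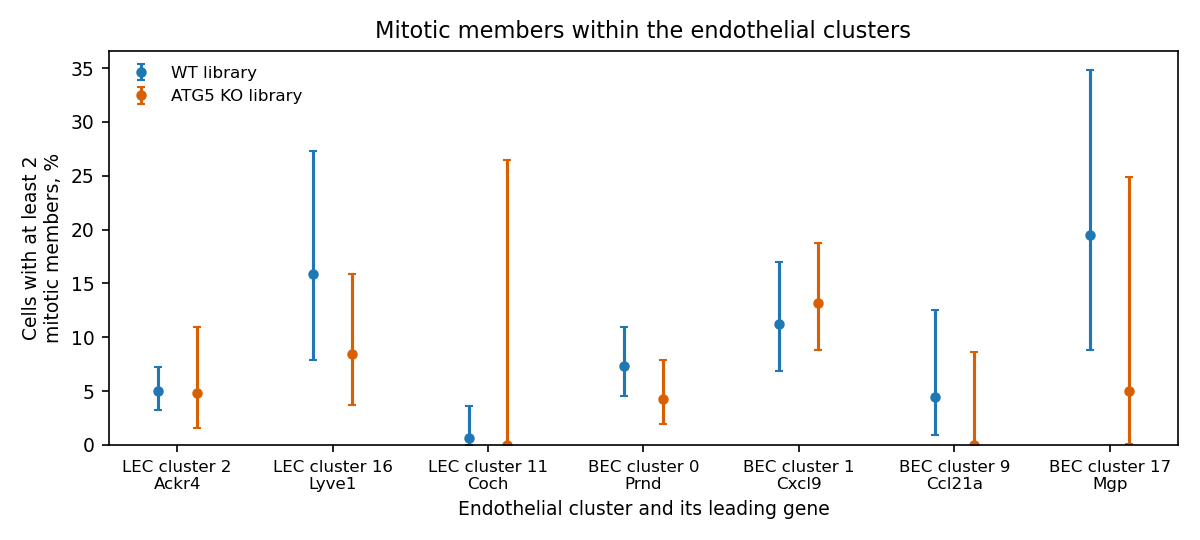
Share of cells with at least 2 mitotic members after thinning to 2000 UMIs, in percent, in each endothelial cluster (named by its leading gene), for the WT and KO libraries, with exact 95% binomial intervals. In every cluster the intervals of the libraries overlap; the Lyve1-led LEC cluster lies above the Ackr4-led one in both libraries, at 15.9% and 8.42% against 4.99% and 4.85%.

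The S-phase members of LECs were lower in the KO library. Of 16 tested 11 were lower by more than 1.5-fold and none higher, against 11.4% and 12.3% of all 11293 genes, with a median log2 ratio of -0.68 where that of all genes was 0.04. The intervals excluded 1 for Cdc6 (34 and 2 UMIs, 0.181, 0.0211 to 0.707), Exo1 (27 and 2, 0.228), Clspn (62 and 7, 0.348), Hells (107 and 17, 0.489), Pclaf (95 and 17, 0.551) and Mcm5 (169 and 36, 0.656). The 29 WT and 10 KO LECs with most S-phase UMIs held 54.1% and 33.5% of them, so these intervals are too narrow. Pcna was at 0.685 (0.580 to 0.806). The ratio of the summed S-phase UMIs was 0.724 (0.633 to 0.826) in the Ackr4 cluster and 0.661 (0.549 to 0.796) in the Lyve1 cluster, so both clusters shared the direction. Of 17 mitotic members 5 were lower and 1 higher, with intervals that excluded 1 for Ube2c (70 and 7, 0.308), Cdk1 (65 and 9, 0.426) and Top2a (268 and 52, 0.598). Mki67 was at 0.958 (0.759 to 1.20). Median mitochondrial content was 6.99% in WT and 10.5% in KO LECs, and the summed S-phase ratio, 0.672, was 0.597 in cells with at most 10% mitochondrial UMIs. In female LECs the summed ratio was 0.587 for S-phase and 0.470 for mitotic members.

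Genes that brake or prepare the cycle were read from lists. Of the CDK inhibitors, Cdkn1b (p27), which holds resting cells in G1, stood at 464 and 415 CPM in WT and KO B cells, 716 and 630 in CD4 T cells, 525 and 419 in CD8 T cells and 560 and 660 in Tregs, and at 60.03 and 75.4 in germinal centre B cells. LECs had 257 and 201 CPM and BECs 209 and 169. Cdkn1a (p21), a target of p53, was an endothelial transcript, at 167 and 142 CPM in BECs and at or under 11.96 CPM in all lymphocyte classes. In LECs it was at 201 and 48.4 CPM, a ratio of 0.241 (0.188 to 0.306). That difference lay in the Ackr4 cluster, at 219 and 48.2 CPM (0.220, 0.152 to 0.308), and in the Lyve1 cluster the levels were 55.1 and 48.6 CPM (0.881, 0.531 to 1.48). Cdkn2d, an inhibitor of CDK4 and CDK6, was within 6.16 to 68.9 CPM in every class.

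The D-type cyclins, which start G1, divided the classes. Ccnd1 was at 780 and 674 CPM in LECs and 895 and 769 in BECs, and at or under 3.55 CPM in every lymphocyte class. Ccnd2 was at 901 and 1029 CPM in CD4 T cells, 995 and 1012 in CD8 T cells and 885 and 1034 in Tregs, at 107 and 105 in B cells, and at 10.6 and 0 CPM in germinal centre B cells. Ccnd3 was found in all classes, at 89.4 and 132 CPM in LECs, 348 and 436 in CD4 T cells and 487 and 377 in germinal centre B cells. Ccnd2 in LECs was at 35.9 and 106 CPM, a ratio of 2.95 (2.37 to 3.68), with 20.6 and 74.4 CPM in the Ackr4 cluster and 158 and 134 CPM in the Lyve1 cluster. Over the whole G1 list of 8 cyclins and kinases, 1 of 7 tested was higher and 2 lower in LECs, against 12.3% and 11.4% of all genes. In CD4 T cells 0 of 7 moved by more than 1.5-fold, where 7.35% of all genes were higher and 8.55% lower.

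A longer list held 55 other mitotic genes. They belong to the same phase as the mitotic members, so their counts are not independent of those of the members. In CD4 T cells 31 of 38 tested were lower by more than 1.5-fold and none higher (median log2 ratio -1.63), against 8.55% and 7.35% of all genes. In Tregs 15 of 48 were lower and 3 higher, against 11.4% and 12.7%. In BECs the counts were 17 of 54 and 1, against 9.1% and 6.52%, and in LECs 18 of 44 and 2, against 11.4% and 12.3%. In CD8 T cells they were 3 of 43 and 7, against 6.73% and 7.27%, and in germinal centre B cells 2 of 50 and 10, against 13.5% and 13.7%. Its 3 genes with most UMIs differed less in CD4 T cells: Smc4, a condensin subunit, was at 1462 and 1443 CPM in CD4 T cells (0.987, 0.933 to 1.05), Smc2 at 89.8 and 66.1 CPM and Hjurp, a histone chaperone of centromeres, at 97.6 and 77.9 CPM. Of 34 other replication genes, 20 of 33 were lower and 2 higher in LECs (median log2 ratio -0.80), against 11.4% and 12.3% of all genes, and 14 of 26 were lower and none higher in Tregs, against 11.4% and 12.7%. In BECs 1 of 33 was lower and 5 higher, against 9.1% and 6.52%, and in CD4 T cells 3 of 24 and 2, against 8.55% and 7.35%. Of the 3 with most UMIs, Mcm4 was lower in LECs, at 56.1 and 32.0 CPM (0.572, 0.412 to 0.778), whereas Atad2 was at 46.5 and 51.7 and Slbp, which binds histone mRNA, at 27.8 and 31.4 CPM. Of the retinoblastoma and DREAM list, Rb1 ran from 30.7 CPM in KO LECs to 190 in KO Tregs, Rbl2 from 21.4 to 167 CPM and E2f4 from 69.2 to 141 CPM.

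Outside these lists, genes were ranked by their CPM in cells with at least 2 mitotic members over that in cells without a member UMI. Both groups were taken without thinning. In 229 endothelial cells with at least 2 mitotic members against 528 with no member, the leading genes included Cep55, Iqgap3, Kntc1, Neil3, Cip2a, Fignl1, Knstrn, Trip13 and Cdkn3. Cep55, which acts in the final cut between daughter cells, had 119 UMIs against 1, a ratio of 123 (21.7 to 4908), and Knstrn, a spindle and kinetochore protein, 154 against 4 (39.9, 15.3 to 148). In 152 lymphocytes against 2001, they included Prg2, Rgs13, Cdkn3, Jchain, Neil3, Gcsam, Ighg1, Stil and Pif1. Of the 152 cells 45 were germinal centre B cells, so the classes are not balanced between the groups compared. Gcsam had 233 UMIs against none. Rgs13 and Gcsam are genes of germinal centre B cells, and Jchain and Ighg1 of antibody-secreting cells. Prg2, with 1765 UMIs against 1, is known from eosinophil granules and plasma cells, and its source among these lymphocytes was not tested. Depth differs between the groups compared, since cells with at least 2 mitotic members hold more UMIs.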

How the data were processed

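Single-cell counts were deposited as UMIs per barcode and gene, made with the BD Rhapsody WTA Analysis Pipeline 1.11 per the file headers: Enhanced beads, an mm10 reference (also named in the submitters' processing notes), error-corrected molecules, intronic reads kept and all barcodes listed. Totals were 48832612 reads for 23649554 UMIs (WT) and 45647078 for 23089918 (KO). Cells were called at 1259 and 1266 UMIs (4075 and 4368 barcodes), kept with at least 200 genes and at most 25% mitochondrial UMIs (3880 and 4171), and cleared of Scrublet doublet calls (28 and 31). They were clustered with scanpy 1.11.5 (2000 variable genes without cell cycle genes, 30 components, 15 neighbours, Leiden resolution 1) under Python 3.11.15 with scipy 1.17.1.

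Shares have Clopper-Pearson intervals, differences of shares Newcombe intervals, CPM exact Poisson intervals and ratios exact binomial intervals, all at 95%. Ratios were read for genes with at least 20 UMIs over both libraries, past 1.5-fold, and a count of 0 was set to 3. The procedures were tested on simulated data, in which the UMIs of a gene were drawn as independent counts. That simulation does not cover genes whose UMIs lie in few cells, where the intervals of ratios are too narrow. The 34 members and all lists were chosen with earlier results of these data known, and germinal centre B cells were separated, and class names settled, after the clusters were seen. Named in full were the 4 members of each phase with most UMIs and the 1 with fewest; named with values were members past 1.5-fold with an interval excluding 1, the 3 genes of each pathway list with most UMIs with Cdkn1a, Cdkn1b and the D-type cyclins, and 10 further genes per compartment, some of which are not reported here. Rrm2, Tyms, Ccnb2 and Kif23 were also named after their values were seen. Alternatives covered thinning depth, number of members, mitochondrial filter, doublets, clustering, molecule correction, scaling, low counts and sex.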

Additional observations from a re-analysis of the deposited data

Results flagged for a closer look

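Mitotic members were also found in classes outside the comparisons. Without thinning, 11.6% of 146 myeloid cells over both libraries had at least 2 mitotic members (17 cells, 6.93 to 17.99), above the 0.619% of B cells (18 of 2910). After thinning the myeloid share was 6.52%. The summed mitotic UMIs of myeloid cells were 60 in the WT and 844 in the KO library, a ratio of 8.84 (6.8 to 11.7). Of the 89 KO myeloid cells, 4 held 87.8% of the 844, so this interval is too narrow. In the myeloid cluster led by Lyz2, 1 of 41 WT and 7 of 64 KO cells were mitotic-positive after thinning. The interval of that difference ran from -3.07 to 18.7 points. Of 22 plasma cells, 22.7% had at least 2 mitotic members (5 cells, 7.82 to 45.4), and 9.09% after thinning. Their mitotic UMIs were 8 and 430, of 7 WT and 15 KO cells, and 1 KO cell held 87.2% of the 430. Their source was not tested.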

How the results depend on the processing

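Of 179 alternative values of share differences 167 stayed within the spread set for a stable value, of 130 ratios 91 and of 65 counts of members past 1.5-fold 53. The cause of the changes was not tested. The lower mitotic share of KO CD4 T cells kept its direction in 12 of 12 alternatives, and its interval excluded 0 in 7. The summed mitotic ratio kept its direction in 8 of 9 alternatives in CD4 T cells and 9 of 9 in BECs, and the S-phase ratio of LECs in 10 of 10. No paired analysis was possible because each genotype has 1 library. The counts limit single members: 8 of 18 mitotic members reached 20 UMIs in B cells, against 18 in germinal centre B cells, which held fewer UMIs in all.

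In female cells the mitotic ratio of KO over WT was 0.955 in B cells, 0.790 in BECs, 24.7 in CD8 T cells, 8.0 in CD4 T cells, 0.592 in germinal centre B cells, 0.470 in LECs and 1.54 in Tregs, with the direction turned in CD4 T cells, germinal centre B cells and Tregs. The S-phase ratio in female cells was 1.22 in BECs, 1.47 in CD8 T cells, 0.961 in CD4 T cells, 1.36 in germinal centre B cells, 0.587 in LECs and 7.81 in Tregs, where the direction turned. Few female WT cells were counted after thinning: 51 CD8 T cells, 49 CD4 T cells, 9 Tregs and 5 germinal centre B cells. Of these, none, 1, 1 and 3 were mitotic-positive, and none of the 9 Tregs was S-phase-positive. In male cells the mitotic ratio was 0.231 in B cells, 0.659 in BECs, 1.07 in CD8 T cells, 0.124 in CD4 T cells, 1.74 in germinal centre B cells and 0.376 in Tregs, and the S-phase ratio 1.66 in CD8 T cells, 1.02 in B cells and 0.653 in Tregs. With at most 10% mitochondrial UMIs the mitotic ratio was 0.639 in BECs, 0.0981 in CD4 T cells, 1.42 in germinal centre B cells and 0.749 in LECs, and the S-phase ratio 1.23 in B cells, 0.518 in CD4 T cells and 0.597 in LECs.

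The following alternatives were chosen after seeing the data. Without the cell with most mitotic UMIs the mitotic ratio was 0.192 in CD4 T cells, 0.958 in B cells, 0.778 in Tregs and 1.60 in CD8 T cells, and the S-phase ratio 0.912 in Tregs. With germinal centre B cells counted as B cells the ratios were 1.04 for mitotic members, a turned direction, and 1.03 for S-phase members. With the Coch cluster counted as LECs the mitotic ratio was 0.993.

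With doublet calls kept, the mitotic ratio was 1.45 in CD8 T cells and the S-phase ratio 0.910 in Tregs. Counts of members past 1.5-fold in B cells, 8 as reported, were 15 at 10 UMIs, 3 at 50 UMIs, 4 in female cells, 1 with germinal centre cells and 3 without the highest cell. At 50 UMIs they were 8 in CD8 T cells (13 as reported), 13 in CD4 T cells (24), 2 in germinal centre B cells (5) and 11 in LECs (17), where fewer members were tested. They were 5 in female CD4 T cells, and 15 in male and 17 in female germinal centre B cells. No share over all genes is given for these alternative settings, so these counts are not read as a result about the members. Differences in S-phase share, KO minus WT in points, were -3.84 in B and -9.54 in CD4 T cells thinned to 3000 UMIs, 4.30 in BECs with at most 10% mitochondrial UMIs, 6.17 in CD8 T cells without thinning, and -5.48, -5.41 and 32.4 in female BECs, LECs and Tregs. The value for female Tregs came from none of 9 WT and 12 of 37 KO cells. Differences in mitotic share were -1.26, 3.52, -5.52 and 7.81 in female B cells, CD8 T cells, LECs and Tregs, and -4.20 in male CD4 T cells.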
